A study of Mus musculus with 2 samples.

Results

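Genes of the newly formed oligodendrocyte stage were followed in 2 RNA sequencing libraries of cultured mouse cells, 1 from control and 1 from Seh1cKO cells. The members are 10 genes chosen by name, with earlier results of these data known, as markers of committed precursors and premyelinating cells. They are Enpp6, Bcas1, Neu4, Itpr2, Rras2, Fyn, Cnksr3, Tmem108, 9630013A20Rik and Gpr17. They were taken as the rows of both library tables with those symbols, 10 of the 18651 genes listed in either table. All 10 were found, and all 10 lay above the floor of a mean of 1 CPM (counts per 1000000 assigned reads) that defined the 13758 measured genes.

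Both groups were C57BL/6 precursor cells from the cortices of pups aged 4 to 7 days, purified by immunopanning and expanded with PDGF-AA, CNTF, bFGF and NT3. For differentiation they received T3 (triiodothyronine) at 60 nM without PDGF-AA, bFGF or NT3, and both libraries are from day 2 of T3. The control is labelled wild type and Seh1cKO mutant, which is read here as a conditional knockout of Seh1l, whose protein Seh1 belongs to the nuclear pore scaffold and to the GATOR complexes. The Cre driver, the deleted part of the gene, any pooling and the number of animals were not given in the sources used here. With 1 library per group no test of the genotype was possible.

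Oligodendrocyte precursors that leave the cell cycle pass through a committed state, marked by the receptor Gpr17, and a premyelinating state, marked by Enpp6 and Bcas1, before they wrap axons and make bulk myelin. Cells stay in these intermediate states only briefly, and Gpr17 has to decline again for myelination to go on. The genes that mark the window do different jobs, from surface enzymes to kinases, a calcium channel and a long non-coding RNA. Several are also used by other cells: Fyn by neurons, Itpr2 by astrocytes and Rras2 by many cell types.

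The libraries were of near-equal depth, with 20730124 and 20599573 assigned reads. Seh1l, the targeted gene, had 666 and 382 reads, or 32.1 and 18.5 CPM, and so was 1.73-fold lower (1.53 to 1.97) in Seh1cKO. With the deleted part unknown, reads outside it cannot check the label. Oligodendrocyte lineage markers were present in both (Olig1, Olig2, Sox10 and Sox8 summed to 2029 and 1882 CPM), and so were markers of other cells. Among the lineage markers, Sox10 (2.05-fold) and Sox8 (1.59-fold) were lower, Olig2 (1.31-fold) was higher and the counting interval of Olig1 held equality. Of all measured genes, 20.0% had a counting interval below equality and 35.5% had one above it. Astrocyte markers summed to 8747 and 5270 CPM, with 5 of 7 intervals below equality and Gfap, Slc1a3 and Aldoc the most abundant. Gfap alone was at 5200 and 2214 CPM, while Aldh1l1 (414 and 483 CPM) and Gja1 (109 and 153 CPM) were higher in Seh1cKO. Fibroblast and mural markers summed to 208 and 621 CPM, with 9 of 9 intervals above equality, led by Col1a1, Tagln and Col3a1. Epithelial and mesothelial markers summed to 11.0 and 204 CPM, with 6 of 7 above, led by Krt8, Krt18 and Msln. Neuron markers summed to 414 and 436 CPM, with 4 of 6 intervals above equality. The most abundant were Map2, whose interval held equality, Tubb3, which lay below it, and Stmn2, which lay above. Microglia markers (most abundant Cd68, Tmem119 and P2ry12) summed to 7.77 and 16.8 CPM, with 2 of 4 measured above. Endothelial markers (most abundant Cdh5, Kdr and Pecam1) summed to 7.86 and 21.1 CPM, with 2 of 3 measured above. Cldn5 had 0 reads in control and 1 in Seh1cKO. The microglia and endothelial lists hold too few measured genes to set their counts apart from the share of 35.5%. Xist was at 0.868 and 341 CPM and Eif2s3y at 1705 reads and 1 read, with Uty at 220 and 0 reads. Their part in the lower levels of the 10 genes was not tested, and genotype and sex-linked expression cannot be told apart in these libraries.

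In Seh1cKO 6 of the 10 genes were lower by at least 2-fold on the scale of log2(CPM + 1), against 1.29% of all measured genes, and 0 were higher by that much, against 2.86%. The 6 were Enpp6, 9630013A20Rik, Bcas1, Gpr17, Neu4 and Itpr2. Counting differences of any size, 9 of the 10 were lower, against 39.1% of measured genes. The median log2 ratio (Seh1cKO minus control) over all 10 was -1.28, and that of all measured genes 0.07. By plain CPM, 9 of the 10 had an exact 95% counting interval below equality, against 20.0% of measured genes, and only the interval of Rras2 spanned it. These intervals cover the counting of reads, not differences between cultures or animals. In bulk RNA, fewer cells of a stage and less RNA per cell cannot be told apart.

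**Figure D1:**
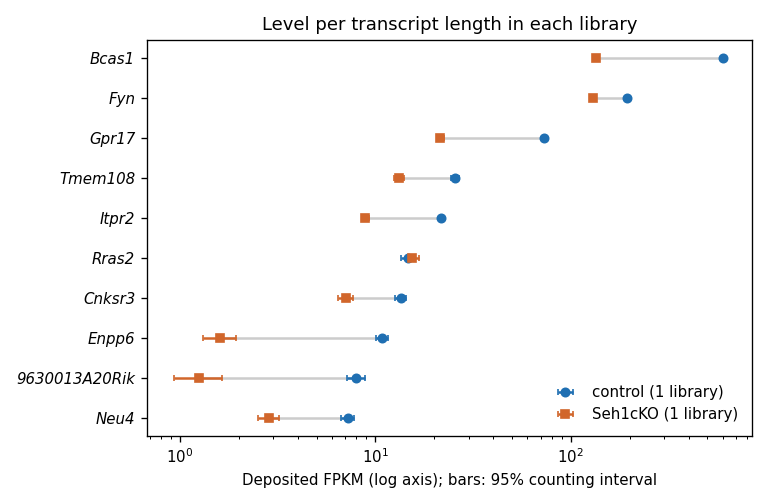
Deposited FPKM (fragments per kilobase of transcript, scaled to library size, log axis) of each gene in the control library (blue circles) and the Seh1cKO library (orange squares), with 95% counting intervals. Bcas1 stands far above Fyn in control, at 604 against 193, and beside it in Seh1cKO, at 135 against 129, while the Rras2 points overlap at 14.7 and 15.5.

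Enpp6, a choline-specific phosphodiesterase of the cell surface, had 693 reads in control and 102 in Seh1cKO, or 33.4 and 4.95 CPM. Its level in Seh1cKO was 14.8% of control (11.9 to 18.3), or 6.75-fold lower, the lowest share among the members. With a pseudocount of 5 CPM its log2 ratio was -1.95 and that of Bcas1, at -2.14, was the lowest. Enpp6 (Entrez 320981) spans 46939197 to 47096762 on chromosome 8 of GRCm38. The long non-coding RNA 9630013A20Rik, which RefSeq also lists as lncOL1, had 341 and 53 reads, or 16.4 and 2.57 CPM. It was 6.39-fold lower in Seh1cKO (4.78 to 8.71), and its log2 ratio was -2.29 with a pseudocount of 1 CPM and -1.50 with 5 CPM. Its gene (Entrez 319903) lies at 84458724 to 84476424 on chromosome 14, inside the body of Pcdh17, a protocadherin gene on the opposite strand. Pcdh17 itself was near equal, at 49.1 and 50.5 CPM, and shares no exon bases with it. Among the 13758 measured genes, Enpp6 was the 17th lowest by log2 ratio.

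The bases before the start sites of these 2 members, the lowest by plain CPM ratio, and of Rras2, the 1 member that was not lower, are shown because the series concerns Olig2, a factor that binds E-boxes, in cells given thyroid hormone. They are RefSeq sequences of GRCm38.p6, 250 bases up to the start site, 5′ to 3′ on the gene's strand. The start site listed for Enpp6 lies inside the span given above. Capitals mark any match, on either strand, to CAGATG or CAGCTG (E-boxes), ACAAAG or ACAATG (SOX motifs), or AGGTCA (the core element of thyroid hormone and other nuclear receptors).
Enpp6, chr8:46986637-46986886, plus strand: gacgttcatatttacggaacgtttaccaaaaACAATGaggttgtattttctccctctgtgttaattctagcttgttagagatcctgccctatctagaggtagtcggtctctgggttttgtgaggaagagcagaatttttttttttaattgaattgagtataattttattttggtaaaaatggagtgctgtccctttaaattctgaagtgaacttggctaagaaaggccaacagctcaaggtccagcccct
9630013A20Rik, chr14:84476425-84476674, minus strand: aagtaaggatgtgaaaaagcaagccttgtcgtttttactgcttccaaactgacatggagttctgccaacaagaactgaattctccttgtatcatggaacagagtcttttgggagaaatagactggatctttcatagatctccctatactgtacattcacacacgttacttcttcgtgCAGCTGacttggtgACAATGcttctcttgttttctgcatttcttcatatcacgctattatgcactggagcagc
Rras2, chr7:114117782-114118031, minus strand: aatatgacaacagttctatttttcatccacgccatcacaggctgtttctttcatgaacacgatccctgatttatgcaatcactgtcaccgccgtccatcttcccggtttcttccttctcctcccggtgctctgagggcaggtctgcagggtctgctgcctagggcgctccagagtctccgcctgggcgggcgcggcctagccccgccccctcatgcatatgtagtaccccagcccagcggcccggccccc

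The promoter table held 9 windows for 8 of the 10 genes, with none for Bcas1 and Gpr17. ACAATG was found in the windows of Enpp6 and 9630013A20Rik and in no other member window, and 12.6% of all 32851 promoter windows hold it (300 bases, of which 50 follow the start). CAGCTG was found for 9630013A20Rik and Cnksr3 (16.3% of all windows) and ACAAAG for Cnksr3 and Tmem108 (18.7%). CAGATG and AGGTCA were in 0 of the 9, against 17.2% and 16.3% of all windows. With so few windows these are descriptions of letters, not of sites in use. The 2 lowest members also had the lowest GC content of the 9 windows, 38.4% for Enpp6 and 41.2% for 9630013A20Rik, below the lower quartile of all promoters at 45.2%, while the window of Rras2 was at 59.6%.

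Gpr17, the receptor that marks committed precursors, is related to the P2Y nucleotide and cysteinyl leukotriene receptors and holds back later maturation. It had 8004 reads in control and 2328 in Seh1cKO, or 386 and 113 CPM, and was 3.42-fold lower (3.26 to 3.58). Gpr17 (Entrez 574402) spans 31942999 to 31949890 on chromosome 18. Its annotated exons share 188 bases with those of Lims2 on the opposite strand. Lims2, an adaptor of integrin adhesions, was lower too, at 40.4 and 20.3 CPM. Whether counting used strand was not given in the sources used here, so reads of the shared part cannot be told apart.

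Fyn, a Src family kinase that relays contact with the axon and releases Mbp mRNA for local translation, was the most read of the signalling members. It had 14313 and 9505 reads, or 690 and 461 CPM, a ratio of 0.668 (0.651 to 0.686). That is the smallest difference of the 9 lower members. In control only Bcas1 had more reads than Fyn, and in Seh1cKO, where Bcas1 had 8580, no member had. Fyn (Entrez 14360) spans 39369743 to 39565381 on chromosome 10. Rras2, a small GTPase of the R-Ras group, had 697 and 731 reads, or 33.6 and 35.5 CPM. The counting interval of its ratio of 1.06 ran from 0.950 to 1.17 and so held equality. Rras2 (Entrez 66922) spans 114046782 to 114117781 on chromosome 7. Cnksr3, a scaffold of Ras and ERK signalling, had 972 and 506 reads, or 46.9 and 24.6 CPM. At 1.91-fold lower (1.71 to 2.13), Cnksr3 stood between Fyn and the 2-fold line. It (Entrez 215748) spans 7119061 to 7212237 on chromosome 10.

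Itpr2, the type 2 IP3 receptor that releases calcium from the endoplasmic reticulum, had 5380 and 2186 reads, or 260 and 106 CPM. It was 2.45-fold lower (2.33 to 2.57). Itpr2 (Entrez 16439) spans 146108299 to 146502258 on chromosome 6. Neu4, a sialidase that trims sialic acid from glycans, had 683 and 268 reads, or 32.9 and 13.0 CPM. Neu4 was 2.53-fold lower (2.20 to 2.93), and its interval and that of Itpr2 overlapped. It (Entrez 241159) spans 94020493 to 94028334 on chromosome 1. Tmem108, a transmembrane protein known from endosome transport in neurons, had 1979 and 1015 reads, or 95.5 and 49.3 CPM, and was at 51.6% of control (47.8 to 55.7), or 1.94-fold lower. Tmem108 (Entrez 81907) spans 103482936 to 103761900 on chromosome 9. Its interval includes 2-fold, as does that of Cnksr3, so the depth does not settle on which side of the line these 2 genes lie.

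Bcas1, a cytoplasmic protein of oligodendrocytes that are starting to myelinate, dominated the group in control. It had 38521 reads in control and 8580 in Seh1cKO, or 1858 and 417 CPM, and was 4.46-fold lower (4.36 to 4.57). Bcas1 (Entrez 76960) spans 170343973 to 170427911 on chromosome 2. In control 53.8% of all reads of the 10 genes came from Bcas1, and in Seh1cKO 33.9%. The summed level of the 10 genes was 3453 CPM in control and 1227 CPM in Seh1cKO. Without Bcas1 the sums were 1595 and 810 CPM, so the lower total did not come from Bcas1 alone. Annotated antisense genes share 440 (Bcas1os1) and 34 (Bcas1os2) exon bases with Bcas1, and 1553 with Tmem108 (Gm16252). Of these, Bcas1os2 had a row, with 44 and 11 reads.

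**Figure D2:**
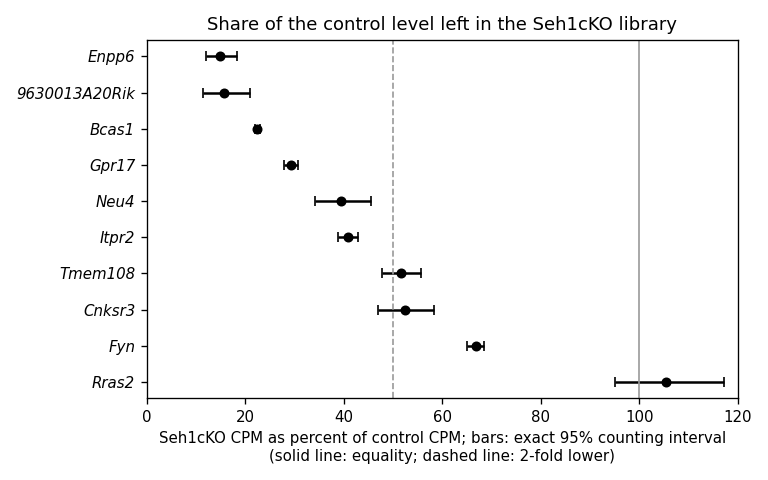
Seh1cKO level of each gene as a percent of its control level (CPM), with the exact 95% counting interval from the 2 read counts. The points run from 14.8% for Enpp6 to 106% for Rras2, and the intervals of Tmem108 and Cnksr3 cross the dashed line at 2-fold.

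The share of the control level that was left falls into steps. Enpp6 and 9630013A20Rik had overlapping intervals, at 14.8% (11.9 to 18.3) and 15.6% (11.5 to 20.9). Bcas1 followed at 22.4% and Gpr17 at 29.3%, each apart from its neighbours in the order. Neu4 (39.5%) and Itpr2 (40.9%) overlapped, as did Tmem108 (51.6%) and Cnksr3 (52.4%). Fyn stood alone at 66.8% and Rras2 at 106%. The members thus differed among themselves by more than counting error allows, over a range of log2 ratios from -2.53 to 0.08.

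Per transcript length, the order of levels also shifted. In control the deposited FPKM values were 604 for Bcas1, 193 for Fyn, 73.2 for Gpr17, 25.6 for Tmem108, 21.7 for Itpr2, 14.7 for Rras2, 13.5 for Cnksr3, 10.8 for Enpp6, 7.99 for 9630013A20Rik and 7.20 for Neu4. The counting intervals of Rras2 and Cnksr3 overlapped, as did those of 9630013A20Rik and Neu4. In Seh1cKO the values were 135 for Bcas1, 129 for Fyn, 21.4 for Gpr17, 15.5 for Rras2, 13.2 for Tmem108, 8.89 for Itpr2, 7.07 for Cnksr3, 2.84 for Neu4, 1.60 for Enpp6 and 1.25 for 9630013A20Rik. There only the last 2 overlapped. Bcas1 stood at 3.12 times the FPKM of Fyn in control and at 1.05 times in Seh1cKO. Rras2 moved from the sixth place to the fourth while its own FPKM was nearly equal. By FPKM Bcas1 ranked 125 of 17655 listed genes in control and 633 of 18027 in Seh1cKO. The mean transcript length that the authors list for each member differed by at most 0.109% between the libraries, so length hardly enters these FPKM ratios.

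**Figure D3:**
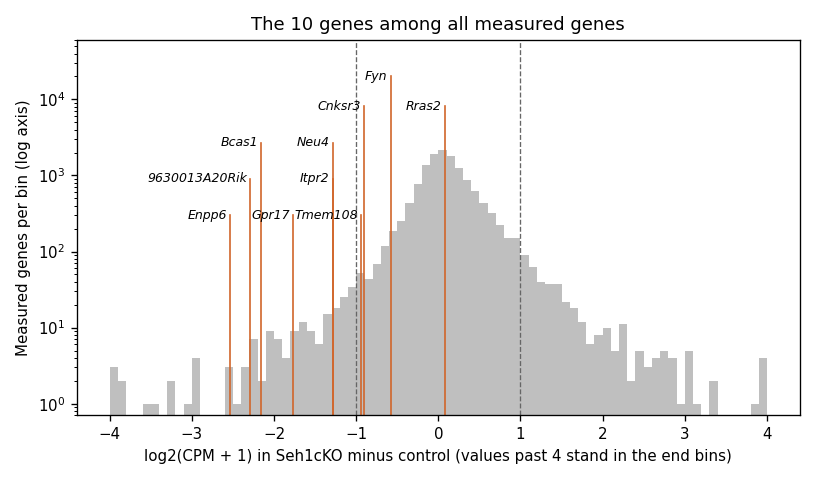
Distribution of log2 ratios (Seh1cKO minus control, pseudocount 1 CPM) over the 13758 measured genes, in bins on a log axis, with each of the 10 genes as an orange line whose height carries no value. The 6 lines from Enpp6 to Neu4 lie left of the dashed line at -1, and Rras2 lies at 0.08 near the centre of the distribution.

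The position of each member among all measured genes follows from these ratios. Ranked from the lowest of the 13758, 9630013A20Rik was at 22, Bcas1 at 29, Gpr17 at 51, Itpr2 at 103 and Neu4 at 105. Tmem108 had a log2 ratio of -0.94 and rank 207, and Cnksr3 -0.91 and rank 226. Fyn, at -0.58, had 3.59% of genes as low or lower. Rras2 was in the middle, with 51.3% of genes as low or lower. The authors' deposited table of differing genes names 6 of the 10, all as lower, where it lists 1.27% of all genes as lower and 3.53% as higher. In the authors' deposited table Enpp6 has a log2 fold change of -2.76, 9630013A20Rik -2.68, Bcas1 -2.16, Gpr17 -1.77, Neu4 -1.34 and Itpr2 -1.29. Those values are log2 ratios of the same FPKM values (tolerance 0.01). They therefore add no independent measurement.

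Members that belong to gene families were compared with their relatives in the same libraries. Relatives of Itpr2 and Gpr17 were in part higher where the members were lower. Itpr1 was at 14.8 CPM in control and 21.0 in Seh1cKO, 1.42-fold higher (1.22 to 1.65), and Itpr3 at 1.54 and 5.73 CPM, 3.71-fold higher (2.49 to 5.67). Itpr2 supplied 93.0% of the summed FPKM of the 3 IP3 receptor genes in control and 76.6% in Seh1cKO, so it was the leading isoform in both. Beside Gpr17, the nucleotide receptors P2ry1 (20.7 and 26.2 CPM) and P2ry2 (7.81 and 15.0 CPM) were 1.26-fold (1.11 to 1.44) and 1.93-fold (1.59 to 2.34) higher. For P2ry6 (2.75 and 2.48 CPM) and P2ry12 (1.21 and 1.65 CPM) the intervals held equality. Gpr17 held 87.6% of the summed FPKM of the 10 P2Y and cysteinyl leukotriene receptor genes, itself included, in control and 60.1% in Seh1cKO.

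In the Src family, Fyn was the 1 of 5 measured kinases whose interval lay below equality. Src was at 153 and 181 CPM, 1.18-fold higher (1.13 to 1.24), and Lyn at 13.0 and 26.7 CPM, 2.05-fold higher (1.77 to 2.38) and just within 2-fold once the pseudocount was added. The intervals of Yes1 (36.3 and 35.7 CPM) and Lck (1.40 and 1.21 CPM) held equality. Fyn was 4.93 times Src per length in control and 2.79 times in Seh1cKO. Among sialidases, Neu4 was lower while the lysosomal Neu1 was at 44.9 and 42.1 CPM, an interval of 0.855 to 1.03 for its ratio, and Neu3 at 5.69 and 7.96 CPM, 1.40-fold higher (1.10 to 1.79).

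In the Enpp family the intervals of 2 relatives, Enpp2 and Enpp5, lay below equality as well. Enpp2, the lysophospholipase D autotaxin that oligodendrocytes secrete, was lower with Enpp6, at 284 and 135 CPM, 2.10-fold (2.01 to 2.20). Enpp5 was at 65.5 and 58.4 CPM (ratio 0.892, 0.825 to 0.965), Enpp4 at 15.4 and 19.4 CPM (ratio 1.26) and Enpp1 at 3.09 and 3.50 CPM (1.13, 0.797 to 1.61). In the R-Ras group Rras2 was the least abundant gene per length and had near-equal relatives, with Mras at 234 and 233 CPM (ratio 0.998) and Rras at 135 and 155 CPM (ratio 1.14). Cnksr2, the measured relative of Cnksr3, was at 1.45 and 1.94 CPM. Cnksr3 held 97.4% of the FPKM of its family in control and 91.3% in Seh1cKO.

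**Figure D4:**
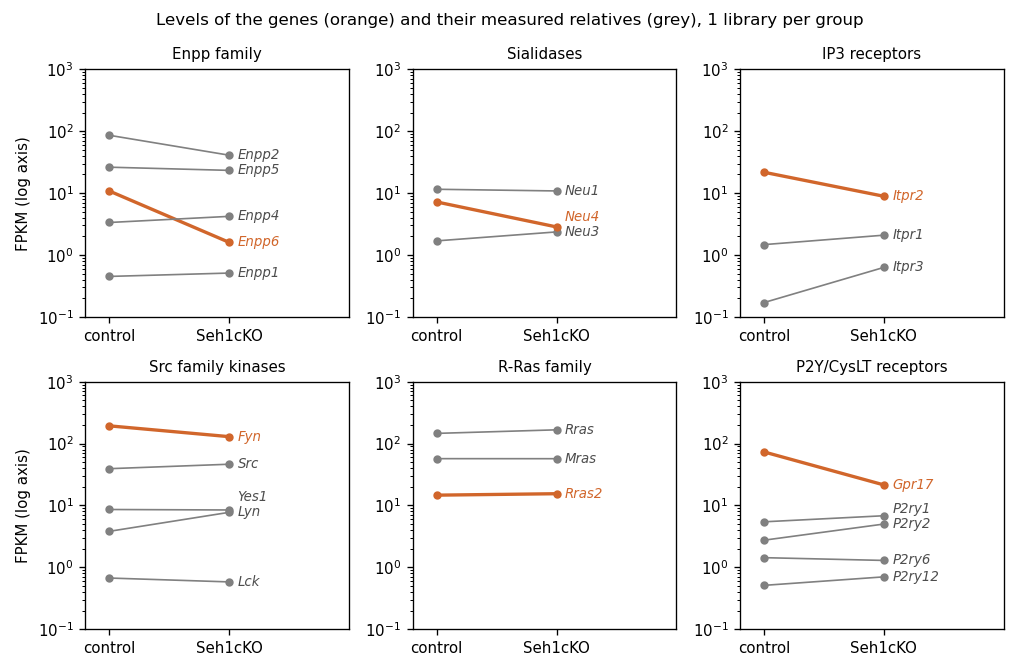
Deposited FPKM (log axis, the same in every panel) in the control and Seh1cKO libraries for the genes (orange) and their measured relatives (grey). Enpp6, Neu4, Itpr2, Fyn and Gpr17 slope down, Enpp2 is the relative that slopes down most, and the 3 R-Ras genes run level.

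Partner genes of the members were within 2-fold about as often as all measured genes, of which 95.8% were. Of 20 Fyn signalling partners, 20 were within 2-fold on the scale with the pseudocount, which draws low genes such as Cbl toward equality. The median log2 ratio was -0.03, with 9 of 20 intervals below equality and 8 above, against 20.0% and 35.5% of measured genes. The largest differences were in Cbl, a ubiquitin ligase (3.38 and 7.48 CPM), Vav3 (16.8 and 25.6 CPM), the guidance cue Ntn1 (108 and 158 CPM) and the kinase Cdk5 (83.6 and 63.2 CPM). All 14 genes of the Ras and ERK cascade, listed as partners of Rras2, were within 2-fold, with a median of 0.00. Pik3cb was at 16.5 and 22.4 CPM, the ERK1 gene Mapk3 at 189 and 142, the Ral exchange factor Ralgds at 178 and 137, and the Ras inactivator Nf1 at 110 and 90.8.

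The calcium store genes around Itpr2 were also within 2-fold in 9 of 9 measured cases, with a median of 0.12. Orai2, a store-operated channel, was at 17.3 and 22.7 CPM and the store sensor Stim1 at 40.2 and 46.6 CPM. Of 9 choline handling genes 9 were within 2-fold, and the choline transporter Slc44a1 stood lowest at 128 and 72.7 CPM, 1.77-fold lower (1.66 to 1.88). Sialylation genes, which add what Neu4 removes, had a median of 0.49, with 8 of 11 intervals above equality against 35.5% of measured genes. St8sia5 was at 3.14 and 7.33 CPM, the polysialic acid enzyme St8sia2 at 5.40 and 10.1, St3gal2 at 66.9 and 97.2 and B4galnt1 at 26.7 and 38.0. Of the 11, St8sia5 alone was at least 2-fold higher on the scale with the pseudocount. By plain CPM, the low genes St8sia4 (2.31-fold, 1.34 to 4.13) and St8sia3 (2.11-fold, 1.45 to 3.10) were as well.

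Among 13 genes of Gpr17 signalling none was 2-fold apart, and the median was -0.10. Id4, a repressor of differentiation, was lowest at 55.0 and 30.5 CPM, with the receptor kinase Grk5 at 5.79 and 8.01, Prkacb at 130 and 167 and the cAMP sensor Rapgef4 at 9.99 and 13.0. Of 6 trafficking partners of Tmem108, 6 were within 2-fold. Wasf1, a regulator of actin branching, was at 95.7 and 49.7 CPM, 1.93-fold lower (1.79 to 2.08), close to the value of Tmem108 itself.

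Genes of neighbouring stages were set beside the 10 genes, with lists chosen by name and with earlier results of these data known. Among 18 measured other genes of the newly formed stage, 7 were at least 2-fold lower and 0 at least 2-fold higher. Their median was -0.94. Of all measured genes, 1.29% were at least 2-fold lower and 2.86% at least 2-fold higher. Of the 18 intervals, 15 lay below equality and 2 above it (Cemip2 and Arpc1b), against 20.0% and 35.5% of measured genes. Gp1bb, a platelet glycoprotein subunit gene, was at 46.3 and 13.3 CPM, Bmp4 at 59.1 and 17.0, and the kinesin Kif19a at 46.8 and 7.23. The zinc transporter Tmem163 stood lowest, at 69.6 and 6.50 CPM. Vcan and Sox6, named after their values were seen, mark the early committed end of the window. They were at 95.6 and 95.3 CPM and at 131 and 114 CPM, while Gpr17, which marks committed precursors, was 3.42-fold lower. Precursor genes had a median of 0.23, with 1 of 12 at least 2-fold lower (C1ql1, 53.9 and 20.4 CPM) and 1 at least 2-fold higher (Xylt1, 3.52 and 10.5 CPM). Myelinating stage genes had a median of -1.86, with 11 of 14 measured at least 2-fold lower and 3 at least 2-fold higher. The medians of the 10 genes and of the other newly formed genes thus lay between those of the precursor and myelinating lists. This order was not tested, and lists chosen in this way give no independent comparison.

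**Figure D5:**
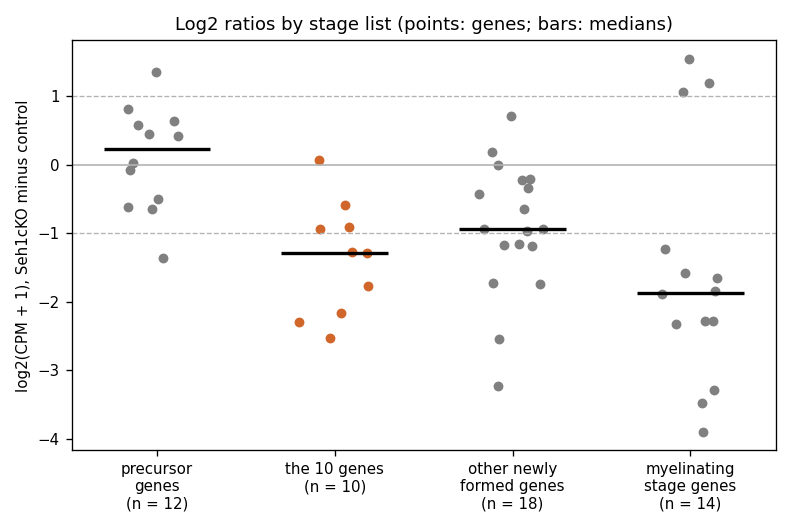
Log2 ratios (Seh1cKO minus control) of the measured genes in 4 stage lists, with a bar at each median and dashed lines at 2-fold. The medians are 0.23 for precursor genes, -1.28 for the 10 genes (orange), -0.94 for other newly formed genes and -1.86 for myelinating stage genes.

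Transcription factors of the lineage gave different yardsticks for the same reads. Of 10 measured ones, 4 were at least 2-fold lower and 0 at least 2-fold higher, against 1.29% and 2.86% of measured genes. Their median was -0.50. Myrf stood lowest, at 188 and 45.9 CPM. Tcf7l2 and Zfp488 are also in the list of other newly formed genes, so the counts of these lists are not separate. Sox10, which drives genes of the whole differentiation program, was at 426 and 207 CPM, 2.05-fold lower, while Olig1 was at 864 and 873 CPM and Olig2 at 496 and 648. Per Olig1 read, 9 of the 10 genes were lower in Seh1cKO and 6 were under 50% of control, against 41.5% and 1.90% of all measured genes. Per Olig2 read, 10 were lower and 8 were under 50%, against 80.1% and 4.18%. Per Sox10 read, 6 were lower, 4 were higher (Rras2, Fyn, Cnksr3 and Tmem108) and 3 were under 50%, against 1.72% of measured genes lower and 0.385% under 50%. Those 3 were Enpp6 at 30.4%, 9630013A20Rik at 32.1% and Bcas1 at 46.0%, followed by Gpr17 at 60.1%. Neu4 and Itpr2 came to 81.0% and 83.9%. These 6 genes, Neu4 and Itpr2 included, were therefore lower by more than Sox10 was, while Tmem108 (106%) and Cnksr3 (108%) stood close to it. The scaling to Sox10 was chosen after the data were seen.

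The genes that flank the members on the chromosome were then compared. The 10 genes lie on 9 chromosomes, with Fyn and Cnksr3 both on chromosome 10. The nearest measured gene wholly outside the member was taken on each side, so overlapping genes such as Lims2 and Pcdh17 were left out. Distances ran from 2.53 to 4590 kb. Of these 20 genes, 1 was at least 2-fold lower and 0 were at least 2-fold higher on the scale of log2(CPM + 1). Their median log2 ratio was 0.02. The other 19 were within 2-fold on that scale, where 95.8% of all measured genes were. The 1 gene lower by that much was Bfsp2, a gene of a lens filament protein 2.53 kb from Tmem108. It was at 20.1 and 7.57 CPM, 2.66-fold lower (2.20 to 3.21). By plain CPM, Diaph3 beside 9630013A20Rik was 2.06-fold higher (1.64 to 2.59). Ulbp1 beside Cnksr3, a low gene at 0.531 and 1.65 CPM, was 3.11-fold higher (1.54 to 6.81). Irf2 and Stox2 beside Enpp6 were at 26.7 and 27.4 CPM and at 120 and 113 CPM, and Zfp217 and Pfdn4 beside Bcas1 at 16.0 and 22.9 CPM and at 25.6 and 26.8 CPM.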

How the data were processed

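RNA sequencing of 1 control and 1 Seh1cKO library was analysed from gene tables. Per the file headers, the authors deposited expected counts and FPKM values for each gene, and a further table of the authors gives log2 fold changes with a p-value and false discovery rate from a test not given in the sources used here. HTSeq, StringTie and the build mm10 are named in the submitters' processing notes, with aligner and strandedness not given in the sources used here. Deposited expected counts (20730124 and 20599573 in all) were not whole for 29.3% and 29.5% of genes and were rounded. Genes absent from a table were set to 0, which allows up to 3 reads (0.145 and 0.146 CPM).

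Counts were scaled to CPM, ratios taken as log2(CPM + 1), which understates differences of low genes, and 2-fold used as the threshold at a mean of at least 1 CPM. Fold intervals are exact 95% Clopper-Pearson intervals from both counts and FPKM intervals exact Poisson intervals; without molecular identifiers both cover counting error only. With 1 library per group no p-value was computed. The intervals were checked on simulated Poisson counts, the error model that they assume. The check therefore says nothing about differences between cultures or animals. Python 3.11.15 and SciPy 1.17.1 were used. Coordinates and promoters are from RefSeq (GRCm38.p6, the assembly of mm10), strands and exon overlaps from GENCODE.

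Named genes were all members, their relatives at 1 CPM or more, up to 4 genes by absolute log2 ratio of each partner and stage list at a mean of at least 5 CPM, the 3 most abundant of each marker list and those at 0, and the nearest measured genes; not all are printed. Vcan, Sox6, Lims2, Pcdh17 and Bcas1os2 were named after their values were seen or for their position. The members and lists were chosen with earlier results of these data known. Other settings tried were a pseudocount of 0.1 or 5, scaling by median of ratios, the upper quartile, or Olig1 and Olig2, the FPKM values, no floor or a floor of 5 CPM, no genes of chromosomes X and Y, and, added later, scaling to Sox10. Every per-sample column was mapped to a library.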

Additional observations from a re-analysis of the deposited data

How the results depend on the processing

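Under 9 other settings 6 to 8 of the 10 genes were at least 2-fold lower, against 0.843% to 1.90% of all genes. The 8 came with scaling to Olig1 and Olig2, where the share of all genes was 1.90%. Enpp6, Bcas1, Neu4, Itpr2, Fyn, Cnksr3, Tmem108, 9630013A20Rik and Gpr17 stayed below 0 in each of the 9 settings. Rras2 ranged from -0.12 (scaled to Olig1 and Olig2) to 0.08. Scaling to Olig1 and Olig2 moved the median of the 10 genes to -1.47 and that of all measured genes by -0.19. Scaling to Sox10, chosen after the data were seen, moved the median of all measured genes by 0.98, left 3 of the 10 genes and 2 of the other newly formed genes at least 2-fold lower, brought the median of the 10 genes to -0.27, and turned Fyn (0.45), Cnksr3 (0.10) and Tmem108 (0.08) positive; these shifts follow from the ratio of Sox10 itself. Of all genes past 2-fold, 68.9% were higher, against 54.9% with a pseudocount of 5, 50.1% when scaled to Olig1 and Olig2, 56.9% on the FPKM scale and 99.4% when scaled to Sox10. The motif counts of the 9 promoter windows did not move with windows of 250 bases. No paired analysis was possible because each group has 1 library, and no replicate could be left out. Depth limits 9630013A20Rik and Enpp6 most, with 53 and 102 reads in Seh1cKO. These 2 also moved most over the 9 settings, from -2.63 to -1.50 and from -2.73 to -1.95. With a pseudocount of 5 CPM Bcas1 (-2.14) was lowest and 9630013A20Rik stood above Gpr17 (-1.73). Scaled to Sox10, 0.324% of all genes were at least 2-fold lower.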
